A study of Drosophila melanogaster with 2 samples.

Results

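Of the 5654 binding peaks of the zinc finger protein CG14711 that the authors kept, 446 (7.89%, 95% Wilson interval 7.21 to 8.62%) lay at internal alternative promoters. These are transcription starts inside a gene that also has a start further upstream. The 446 were chosen by position alone. A peak was kept when its summit had a protein-coding start within 500 bp, all such starts were on one strand, and every one lay more than 1000 bp downstream of the most upstream (first) start of its gene. The 446 peaks made up 12.8% (11.7 to 13.9%) of the 3496 peaks with any protein-coding start within 500 bp, and they belonged to 360 genes by their nearest start. They fell in 432 distinct intervals, since 13 intervals held more than 1 summit. The same rule applied to the 30000 peaks called on the pooled replicates gave 1945.

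The data were chromatin immunoprecipitation sequencing (ChIP-seq) of whole adult female Drosophila melanogaster, of unstated age, from 1 transgenic line in which CG14711 carries enhanced green fluorescent protein at its C terminus, with an antibody to GFP. The single group held 2 samples, labelled biological replicates 3 and 4 and drawn from separate biosamples, and both carried the same fusion, so no second condition was available to compare. The peaks were those of the authors' list thresholded by irreproducible discovery rate (IDR), which scores whether peaks hold their rank from one replicate to the other. That list held the 5654 pooled peaks of highest signal, so a single listed peak need not hold its rank in both replicates. Signal is the value given to each peak by the authors. It ranks peaks within a list and cannot be compared between lists. The lists hold no read counts, so sequencing depth is unknown, and a peak in whole flies cannot be assigned to a cell type. With a single group, differences between sets of peaks or starts were described by 95% Wilson intervals and were not tested.

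An alternative promoter is a second place where RNA polymerase begins transcription of the same gene. Such promoters let one gene answer to different regulators or tissues, and the transcripts they give differ in their first exon, in the untranslated leader alone or also in the amino end of the protein. In Drosophila they are common in long regulatory genes, of which the ecdysone-induced gene Eip75B and the kinase gene for are textbook cases. CG14711 belongs to the ZAD zinc finger family, which is large in insects and whose members join a zinc-finger-associated domain (ZAD) to DNA-binding zinc fingers.

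Sequences at the summits are shown for 3 sets of peaks, each as the 101 bp centred on the summit (dm6, from the RefSeq copy of the assembly), written 5′ to 3′ in the direction of the gene. Capitals mark every match, on either strand, to the 8 short motifs searched. These were the DNA replication-related element TATCGATA, the motif 1 core GGTCACAC, the word CAACCCTG, the TATA box TATAAA, the GAGA repeat GAGAGAG, the E-box CAGCTG, core promoter motif 7 as CANCNCTA and the motif 6 core GTATNTTT, with N for any base. The first set holds the word CAACCCTG, which earlier results of these data had given as frequent at summits. Shown are 4 of the strongest internal-promoter peaks with it, in which the word reads along the gene, and CG4467, in which it reads on the opposite strand beside 2 GAGA repeats.
rogdi, chr3L:17051213-17051313, plus strand: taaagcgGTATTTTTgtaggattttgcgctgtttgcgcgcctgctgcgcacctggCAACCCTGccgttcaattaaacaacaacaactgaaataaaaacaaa
Pfrx, chrX:19505763-19505863, plus strand: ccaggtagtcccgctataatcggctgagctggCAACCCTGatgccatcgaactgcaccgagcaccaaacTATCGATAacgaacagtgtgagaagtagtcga
CG31522, chr3R:4453670-4453770, minus strand: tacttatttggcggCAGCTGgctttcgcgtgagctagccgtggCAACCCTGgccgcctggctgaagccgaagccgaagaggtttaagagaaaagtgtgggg
MEP-1, chr3L:2635626-2635726, plus strand: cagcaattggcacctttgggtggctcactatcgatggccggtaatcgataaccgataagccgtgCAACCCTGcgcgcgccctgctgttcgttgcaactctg
CG4467, chr3R:23240056-23240156, minus strand: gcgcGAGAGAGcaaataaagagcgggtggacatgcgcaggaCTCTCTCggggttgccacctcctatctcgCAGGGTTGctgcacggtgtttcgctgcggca

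The second set holds the peaks with the DNA replication-related element (DRE, TATCGATA) or with the core of core promoter motif 1 (GGTCACAC), both known from Drosophila housekeeping promoters. They are shown because few summit windows of internal-promoter peaks held them. The summit of pit had both elements. In lute the motif 1 core, on the opposite strand, overlaps a CAGCTG match. Pfrx, printed above, was the third peak with a DRE. The weakest of the 3 peaks with the motif 1 core, at Argk1, is not printed.
tkv, chr2L:5242624-5242724, minus strand: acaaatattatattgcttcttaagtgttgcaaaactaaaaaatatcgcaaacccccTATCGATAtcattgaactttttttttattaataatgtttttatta
pit, chr3R:22035664-22035764, plus strand: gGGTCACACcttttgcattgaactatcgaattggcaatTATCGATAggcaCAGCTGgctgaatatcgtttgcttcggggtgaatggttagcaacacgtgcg
lute, chr3R:17385788-17385888, plus strand: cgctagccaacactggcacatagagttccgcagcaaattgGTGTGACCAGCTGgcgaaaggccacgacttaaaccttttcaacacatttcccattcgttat

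The third set shows strong internal-promoter peaks without the word. The windows of Hmt4-20 and gish held no match to any of the 8 motifs, and those of CG10602, CG10165 and Ptpmeg2 held a TATAAA match.
Hmt4-20, chrX:655091-655191, minus strand: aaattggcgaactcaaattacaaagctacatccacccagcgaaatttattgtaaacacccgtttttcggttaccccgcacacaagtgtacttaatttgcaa
gish, chr3R:16280682-16280782, plus strand: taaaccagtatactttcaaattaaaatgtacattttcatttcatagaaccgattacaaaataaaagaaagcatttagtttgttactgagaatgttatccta
CG10602, chr2L:18857744-18857844, minus strand: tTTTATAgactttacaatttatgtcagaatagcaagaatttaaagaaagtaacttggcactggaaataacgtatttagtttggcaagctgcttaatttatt
CG10165, chr2L:19528465-19528565, minus strand: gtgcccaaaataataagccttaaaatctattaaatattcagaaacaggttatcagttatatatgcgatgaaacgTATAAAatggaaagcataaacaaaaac
Ptpmeg2, chrX:9640777-9640877, minus strand: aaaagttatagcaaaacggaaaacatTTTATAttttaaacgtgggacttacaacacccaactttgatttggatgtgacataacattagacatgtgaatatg

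Hmt4-20, Lpin, CG42671, CG10602 and ph-p carried the strongest internal-promoter peaks. Signal ranged from 146 to 4792, with a median of 277 (interquartile range 186 to 513, n = 446), and the IDR list as a whole ran from 146 to 9217. The strongest was at Hmt4-20 (FBgn0025639), which encodes a histone H4 lysine methyltransferase, at 654762 to 655845 on X. Its signal was 4792, with 1971 in the replicate 3 list (rank 8 of 30000) and 2824 in the replicate 4 list (rank 14 of 30000). The summit lay at -203 bp (negative is upstream) from a start 1095 bp inside the gene, and no IDR summit lay within 500 bp of the first start.

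Lpin, the lipin gene of phosphatidate metabolism, followed with a signal of 2921 (ranks 78 and 55 in replicates 3 and 4), at a start 10673 bp inside the gene. CG42671 had 2902 (ranks 46 and 88) and CG10602 had 2857 (ranks 76 and 63). The Polycomb group gene ph-p had 3 internal-promoter summits, the strongest at 2812 (ranks 49 and 94), in a single interval that spanned 2136258 to 2138365 on X. 14-3-3zeta, a phosphoserine-binding adaptor gene, had 2713 (ranks 59 and 99). All of these were within the best 100 peaks of both replicates.

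Several of the others of the 25 strongest peaks lay far inside their genes. The casein kinase 1 gene gish had 2444 in the IDR list (762 in replicate 3 and 1688 in replicate 4) at a start 8437 bp inside the gene. The protein tyrosine phosphatase gene Ptpmeg2 had 2012 (790 and 1242), 18521 bp inside, and the Tec family kinase gene Btk had 1405 (398 and 1017), 23377 bp inside. REPTOR, a bZIP transcription factor that acts downstream of TOR complex 1, had 1652 at 10369 bp inside. The endosomal GTPase gene Rab5 had 1426 at a start only 1769 bp inside. Moe, the actin-membrane linker moesin, had 1656 at 4137 bp inside, and Svil, the actin-binding supervillin, had 1356 at a start 116883 bp inside its gene.

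The others of the 25 were CG1888 (2683), CG10165 (2466), rogdi (2203), CG4622 (2173), the phospholipase gene PAPLA1 (1859), the HMG-box gene bbx (1740), the piRNA pathway gene papi (1653), the membrane transporter gene MFS10 (1580), the deadenylase subunit gene PAN3 (1381), the forkhead gene CHES-1-like (1363), a second summit of ph-p (1354) and the RNA-binding protein gene larp (1321). Every one of the 25 summits lay upstream of its nearest start, 18 of them by 100 to 300 bp. In the replicate lists their poorest ranks were 416 in replicate 3 and 599 in replicate 4. First starts were close to some: 5 of the 25, at Hmt4-20, CG42671, CG1888, CG4622 and Rab5, had the first start of some gene within 1000 bp of the summit.

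Both replicates held most of the internal-promoter peaks. Of the 446, 382 (85.7%, 82.1 to 88.6%) overlapped one of the 5654 best peaks of replicate 3, 386 (86.5%, 83.1 to 89.4%) one of the 5654 best of replicate 4, and 331 (74.2%, 70.0 to 78.1%) both. The share in both was 70.8% over all IDR peaks. Another 51 were among the best of replicate 3 alone, 55 among the best of replicate 4 alone and 9 in neither. In the full lists, 440 were overlapped in both, and 218 had the better rank in replicate 3 against 221 in replicate 4. Across those 440 peaks the ranks had a Spearman correlation of 0.646, a description over peaks that come from the same 2 libraries.

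Single peaks of lower rank still differed widely between replicates. Wdr62 had rank 1295 in replicate 3 and 15937 in replicate 4, and the weakest summit of Rtnl1 had 28319 and 2607. A stronger Rtnl1 summit in the same interval had ranks 1436 and 1309, so that region ranked similarly in both replicates. The peak of orion had rank 16938 in replicate 3 and 1944 in replicate 4. In the IDR list these 3 had ranks 2653, 3427 and 2620 of 5654.

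**Figure D1:**
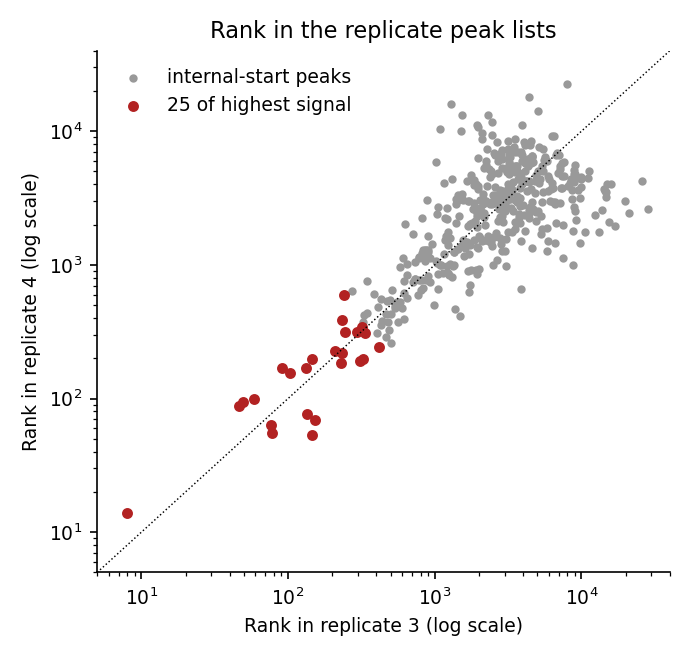
Rank of the nearest overlapping peak in the replicate 3 list (x axis) and in the replicate 4 list (y axis), both on log scales, for the 440 internal-promoter peaks found in both lists. Red points are the 25 of highest IDR signal, which stay within rank 416 and 599, while weaker peaks (grey) scatter about the dotted line of equal rank.

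Summits at internal starts lay further upstream than those at first starts. The median summit was at -185.5 bp from the nearest start (interquartile range -298 to -53 bp, negative is upstream, n = 446), and 82.7% (78.95 to 86.0%) of summits were upstream. For the 1760 peaks whose starts, all on one strand, were within 1000 bp of the first start of their gene, the median was at -76 bp (-171 to 0 bp) and 74.9% (72.9 to 76.9%) were upstream. The median was also -76 bp for the 1274 peaks with protein-coding starts on both strands, where a start to either side limits the distance by construction.

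The interval from 200 to 300 bp upstream of the start held 21.7% of internal-promoter summits, more than any other 100 bp step, and 10.3% of first-promoter summits. The last 100 bp before the start held 16.8% of internal-promoter summits and 32.4% of first-promoter summits. Of internal-promoter summits 41.7% (37.2 to 46.3%) lay more than 250 bp from the start, against 17.0% (15.3 to 18.8%) of those at first starts. With a window of 250 bp the medians were -108.5 and -63 bp (274 and 1854 peaks), and with 1000 bp they were -187 and -69 bp (571 and 1766 peaks). Leaving out the 54 peaks within 1000 bp of any first start gave a median of -172.5 bp (n = 392), in a comparison added after the values were seen.

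**Figure D2:**
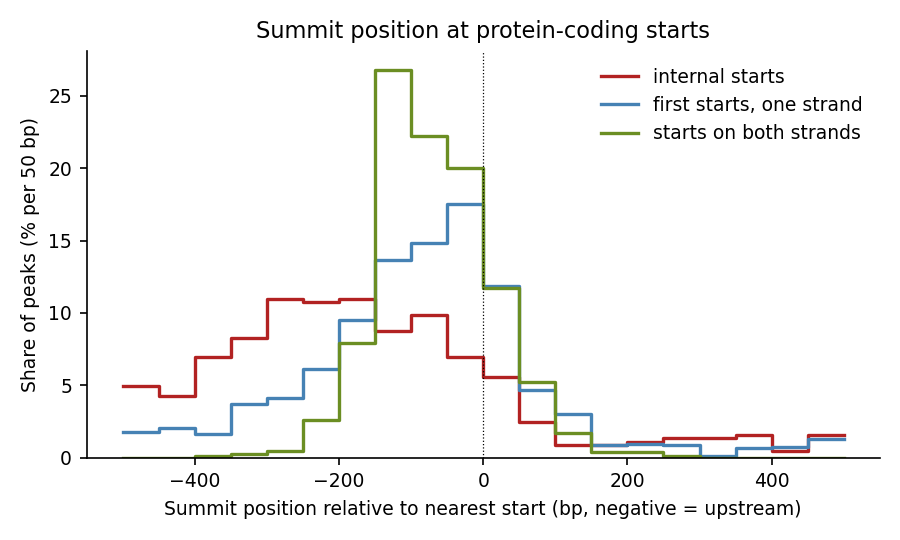
Share of peaks per 50 bp (y axis) by summit position relative to the nearest protein-coding start (x axis, bp, negative is upstream), for 446 peaks at internal starts (red), 1760 at first starts on one strand (blue) and 1274 with starts on both strands (green). The red line is broad between 50 and 400 bp upstream, while the other lines are highest in the last 150 bp before the start.

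Peaks just inside and just outside the limits of the rule are given for description. The 29 members with a start 451 to 500 bp away had a median signal of 305, and 28 peaks just outside, at 501 to 550 bp, had 250. The 30 members whose start was 1001 to 1200 bp inside the gene had a median of 276, and 34 peaks at 801 to 1000 bp had 285.

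A smaller share of internal than of first starts was occupied. The genome annotation gave 1752 protein-coding genes with at least 1 internal start and 3001 internal starts in all, and an IDR summit lay within 500 bp of 556 of them (18.5%, 17.2 to 19.96%). Of the first starts of the same genes 551 had one (31.4%, 29.3 to 33.7%), and of the first starts of all 13945 protein-coding genes 28.4% had one. Pooled peaks gave 60.3% (58.6 to 62.1%) of internal and 72.5% (70.4 to 74.6%) of first starts of the same genes. Starts of one gene that lie close together can share a peak, so they are not independent.

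Occupancy varied modestly with distance from the first start. The share with an IDR summit was 21.5% (18.6 to 24.7%) of 702 starts 1 to 2 kb inside the gene and 19.98% of 806 starts at 2 to 5 kb. It was 17.3% of 474 at 5 to 10 kb, 17.2% of 443 at 10 to 20 kb, 14.2% (11.1 to 17.97%) of 401 at 20 to 50 kb and 16.6% (11.8 to 22.8%) of 175 beyond 50 kb. Intervals of neighbouring distances overlapped. The members themselves lay from 1001 to 152967 bp inside their genes (median 5029 bp), with 152 beyond 10 kb and 28 beyond 50 kb. The farthest belonged to dnc, the cAMP phosphodiesterase gene of the dunce memory mutants, with a signal of 354 (ranks 1733 and 2038 in replicates 3 and 4).

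**Figure D3:**
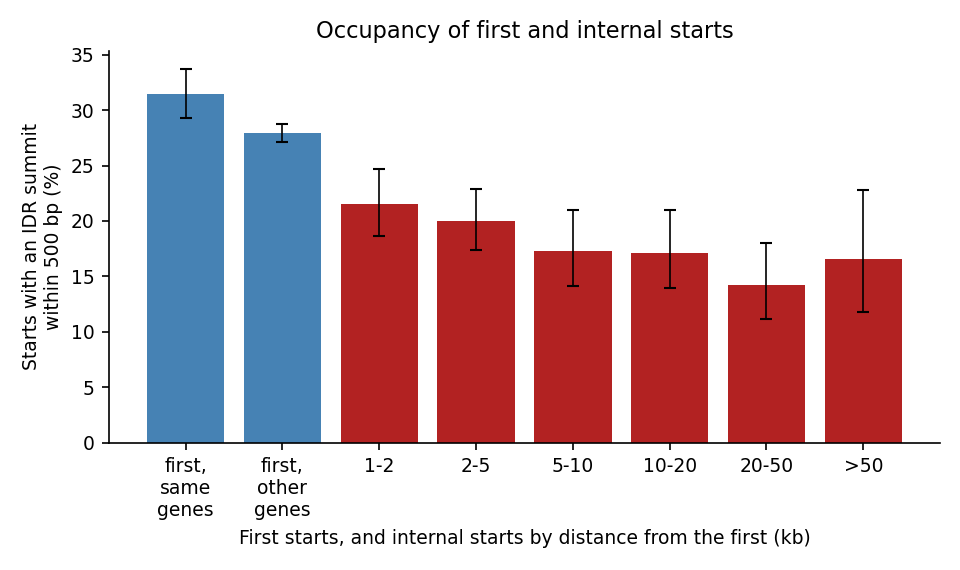
Share of starts with an IDR summit within 500 bp (y axis, %, from 0) for first starts (blue) and for internal starts by distance from the first (red, kb). Bars are shares and lines their 95% Wilson intervals over starts. First starts reach 31.4% and 27.9%, and internal starts lie between 14.2% and 21.5%.

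Arm 2R had the lowest occupancy of internal starts among the large arms. Of internal starts, 20.7% (17.7 to 24.1%) on X, 20.2% on 2L, 19.7% on 3L, 19.1% on 3R and 13.8% (11.4 to 16.7%) on 2R had an IDR summit, and on chromosome 4 it was 5 of 37. First starts of the same genes on 2R were at 30.8%, beside 30.6 to 33.6% on the other large arms. The 107 internal-promoter peaks on X were 24.0% (20.3 to 28.2%) of the 446, and 618 of all 3001 internal starts lay on X.

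Within genes, the first start had an IDR summit in 41.1% of the genes with an internal-promoter peak and in 31.4% of all genes with an internal start. Of the 360 genes with an internal-promoter peak, 148 (41.1%, 36.1 to 46.3%) also had an IDR summit at the first start, and 308 (85.6%, 81.5 to 88.8%) had a pooled summit there. Over all 1752 genes with an internal start these shares were 31.4% and 72.5%. Of those 1752 genes, 183 had an IDR summit at both the first and an internal start, 368 at the first alone, 257 at an internal start alone and 944 at neither. These counts take any IDR summit within 500 bp of an internal start, also one that has starts on both strands or a first start in its window, so they cover more genes than the 360. An internal start was occupied in 33.2% (29.4 to 37.2%) of genes with an occupied first start and in 21.4% (19.2 to 23.8%) of the others. In the 1079 genes with exactly 1 internal start, where both promoters have a single chance, 30.2% of first starts and 16.9% of internal starts were occupied, 75 genes had both and 107 the internal start alone.

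The strongest of the genes with no IDR summit at the first start were Hmt4-20, Lpin, CG42671, CG10602 and CG1888, all described above. Of these, Hmt4-20, CG42671 and CG1888 had starts only 1095, 1274 and 1177 bp inside the gene, and their summits lay within 1000 bp of the first start. The strongest with both were ph-p (2812 at the internal and 2188 at the first start), 14-3-3zeta (2713 and 392), CG10165 (2466 and 167), Ptpmeg2 (2012 and 291) and PAPLA1 (1859 and 780). These 5 were chosen for the height of their internal signal.

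Among all 148 genes with both, the internal signal was the higher in most, and the genes with 1 internal start left the direction open. The highest internal signal was above the first-start signal in 90 of 148 genes (60.8%, 52.8 to 68.3%), with a median log2 ratio of 0.39 (interquartile range -0.76 to 1.24). That count takes the highest of several internal starts in many genes. The first-start value takes any IDR summit within 500 bp, also one with starts on both strands. The internal value comes from internal-promoter peaks alone. Peaks with starts on both strands had a median signal of 317, against 239 for first-promoter peaks. The part of this in the comparison was not tested. In the 52 such genes with exactly 1 internal start the internal signal was higher in 23 (44.2%, 31.6 to 57.7%), and the median log2 ratio was -0.28. SNF4Agamma, the gamma subunit of the AMP-activated kinase, shows the other side, with 762 at its strongest internal start and 2642 at the first, and so does ash2, a trithorax group gene, with 426 and 2521.

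**Figure D4:**
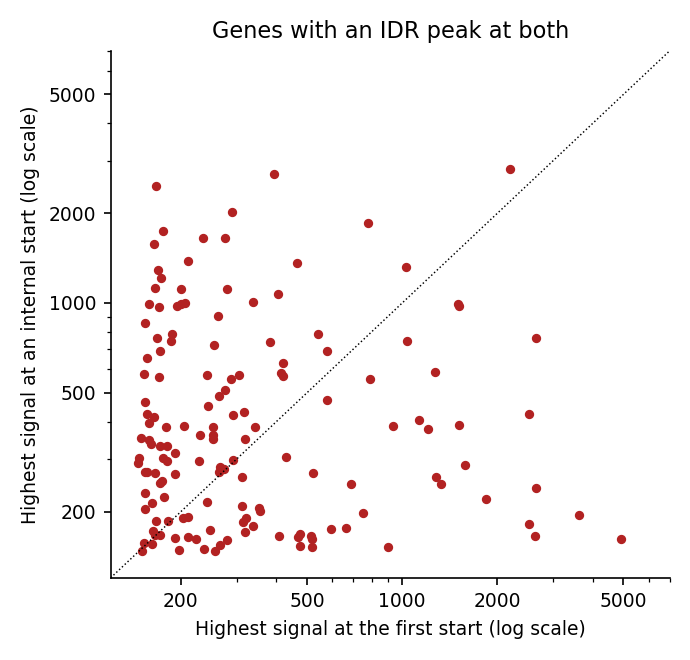
Highest IDR signal at the first start (x axis) and at an internal start (y axis), both on log scales, for the 148 genes with a peak at both. Each point is a gene and the dotted line is equal signal. First-start values take any IDR summit within 500 bp, and internal values take internal-promoter peaks alone. Points spread to both sides of the line, 90 of 148 above it.

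Some genes carried several internal-promoter peaks. Of the 360 genes, 297 had 1, 48 had 2, 10 had 3, 2 had 4 and 3 had 5. Ptpmeg2 had 5 summits, with signals from 2012 down to 155, along 5 internal starts. Rtnl1, the reticulon gene of the endoplasmic reticulum, had 5 with signals from 994 to 218, 4792 to 12339 bp inside the gene. SNF4Agamma had 5 from 762 to 155 and 10 internal starts over 73.5 kb. Of its 5 summits, 2 lay before the same start, and 1 peak in each replicate list overlapped both.

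The 2 genes with 4 peaks were long regulatory genes. Eip75B, an ecdysone-induced nuclear receptor gene of 114 kb, had its strongest at 481 (ranks 1614 and 1335), 64875 bp inside, and the other 3 between 149 and 156. The peaks of dnc, in a gene of 167 kb, had signals of 663, 523, 354 and 152. Neither gene had an IDR summit at the first start. Genes with 3 included spi, the ligand of the epidermal growth factor receptor (430 at its strongest), Pgk, the glycolytic phosphoglycerate kinase (1075), Moe and the RNA-binding protein gene Syp (499). The 360 genes had a median length of 14.4 kb and 3 starts, against 11.5 kb and 3 starts for all 1752.

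Most starts beside these peaks lay in introns of the longer transcripts. The nearest start was within an intron of every transcript that begins more than 1000 bp upstream and spans it, and in none of their exons, for 410 of 446 peaks (91.9%, 89.0 to 94.1%), and in an exon for 36. Counted by start, 89.7% (86.9 to 92.0%) of the 556 internal starts with an IDR summit were intronic. Of those without one, 88.6% (87.3 to 89.8%) were. Transcripts from the start shared a coding start with a transcript from upstream for 217 peaks (48.7%, 44.0 to 53.3%). For the other 229 (51.3%, 46.7 to 55.95%) no coding start was shared. Counted by start, the coding start differed for 45.3% (41.2 to 49.5%) of the 556 internal starts with an IDR summit. It differed for 50.6% (48.6 to 52.6%) of those without one. Of the 25 strongest peaks 7 had a different coding start, among them gish, rogdi, Ptpmeg2, Btk and Svil.

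Few peaks had a noncoding or a second gene's start close by. A start of a noncoding gene lay within 500 bp of the summit for 15 peaks (3.36%), and starts of more than 1 protein-coding gene, on the same strand, for 3. In 54 peaks (12.1%, 9.40 to 15.5%) the first start of some gene lay within 1000 bp. For 395 of the 446 the window held exactly 1 start.

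Gene groups were described by how many of their genes with an internal start had an internal-promoter peak, read against 20.5% of all 1752 such genes (360 genes). The 8 groups are partial lists written by hand, which leave out some genes of the same kind with internal-promoter peaks, so that counts and order hold within each list alone. Of the listed ecdysone response and nuclear receptor genes 7 of 15 had one (46.7%, 24.8 to 69.9%). The strongest in the list were Eip75B, Hnf4 (signal 376), which encodes a nuclear receptor of lipid metabolism, Blimp-1 (278), a timing repressor in ecdysone signalling, and EcR, the ecdysone receptor itself (268, ranks 3222 and 3126 in replicates 3 and 4). The coactivator gene tai (248), Eip93F (243) and ERR (175) made up the rest. The ecdysone-induced genes Eip63F-1 (914) and Eip63E (254) also had peaks and were not in the list. The listed values lay near or below the median of 277 for all internal-promoter peaks, except those of Eip75B and Hnf4.

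Of the other sequence-specific transcription factors listed 16 of 37 had one (43.2%, 28.7 to 59.1%). Within the list the strongest were REPTOR, lola (1117), a BTB zinc finger gene of axon guidance, Pdp1 (1065), a bZIP gene of the circadian clock, and cnc (723), the Nrf2 homologue of the oxidative stress response. The stronger of 2 peaks of lola had ranks 464 and 428 in replicates 3 and 4 and the weaker 2739 and 2606. For Pdp1 these ranks were 412 and 485, and 5897 and 1518. The genes bbx (1740) and CHES-1-like (1363), described above, were not in the list. Also in this list were vri (462), Trl (439), which encodes GAGA factor, fru (379), the sex determination gene of courtship, at a start 106815 bp inside, and sd (351), the DNA-binding partner of Yorkie.

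Listed chromatin regulators had 8 of 22 (36.4%, 19.7 to 57.0%), with Hmt4-20 and ph-p strongest, then ash2 and jing (310). Listed cytoskeleton and adhesion genes had 11 of 29 (37.9%, 22.7 to 56.0%), with Moe, the actin nucleator genes capu (896) and dia (272), and Msp300 (859), which anchors muscle nuclei. Listed kinases and phosphatases had 12 of 39 (30.8%, 18.6 to 46.4%). The strongest in the list after gish were for (1034), the cGMP-dependent kinase of foraging behaviour, sgg (814), the glycogen synthase kinase 3 of Wnt signalling, and SNF4Agamma. Ptpmeg2 (2012) and Btk (1405) were stronger than these 3 and were not in the list.

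In the other 3 lists the shares were between 11.8% and 28%. Listed RNA-binding protein genes had 7 of 25 (28%, 14.3 to 47.6%), with the splicing regulator gene mbl (711), Syp, the musashi gene msi (405), of asymmetric division in sense organ precursors, and pAbp (310), which binds poly(A) tails. The stronger larp (1321), smg (854) and Larp4B (778) were not in the list. Listed small GTPases and their regulators had 2 of 10, at the exchange factor genes trio (578) and pbl (353), while Rab5 (1426), RapGAP1 (1077 at its strongest), RhoGAP16F (472), Ran (304), Rgl (280) and Rab8 (166) were not listed. Listed ion channel and synapse genes had 4 of 34 (11.8%, 4.67 to 26.6%), at dnc, the sodium pump gene Atpalpha (386), the calcium pump gene SERCA (211) and the potassium channel subunit gene Hk (153). The channel genes Trpm (979), Orai (653), SLO2 (255), wtrw (244) and Nmda1 (199.9) also had peaks and were not listed, so the share describes the list and not channel genes at large. Counted by start, an IDR summit lay at 24 of 88 internal starts of listed transcription factors (27.3%) and 13 of 36 of chromatin regulators (36.1%). It lay at 9 of 36 of ecdysone response genes (25%), 18 of 73 of cytoskeleton and adhesion genes (24.7%) and 20 of 95 of kinases and phosphatases (21.1%). RNA-binding protein genes had 12 of 62 (19.4%), ion channel and synapse genes 9 of 75 (12%) and small GTPases 2 of 25 (8%), against 18.5% of all. These shares were given without intervals. For 5 of the 8 lists the interval of the share by gene took in the background of 20.5%. The median number of internal starts per gene was 1 in the kinase and chromatin lists and 2 or 2.5 in the others. Over all genes with an internal start it was 1. More starts give a gene more chances of a peak, and their part in the shares by gene was not tested. No list was tested.

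DRE, motif 1 and core promoter motif 7 were in smaller shares of internal-promoter than of first-promoter windows. Shares are of windows of 101 bp centred on the summit with a match on either strand. Internal-promoter summits lay further from the start (median -185.5 bp, against -76 bp at first starts). Their windows therefore often did not reach the start itself, and the part of this distance in the shares was not tested. DRE (TATCGATA) was in 3 of 446 internal-promoter windows (0.673%, 0.229 to 1.96%), in 77 of 1760 at first starts (4.38%, 3.51 to 5.43%) and in 64 of 1274 with starts on both strands (5.02%). The motif 1 core (GGTCACAC) was in 3 internal-promoter windows, printed above for pit and lute, and in 61 at first starts (3.47%, 2.71 to 4.43%). Motif 7 (CANCNCTA) was in 19 (4.26%, 2.74 to 6.56%), against 186 at first starts (10.6%, 9.22 to 12.1%). Peaks away from protein-coding starts had 0.371%, 0.139% and 3.99% for these motifs (n = 2158), and all IDR peaks 2.69%, 1.84% and 7.02%.

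The word CAACCCTG had overlapping intervals in all classes of peak. It was in 15 internal-promoter windows (3.36%, 2.05 to 5.47%), 2.90% of those at first starts, 2.90% of those with starts on both strands and 2.32% of those away from starts. Windows 300 bp to either side of the internal-promoter summits had it in 1 of 892 (0.112%), and 801 internal starts with no pooled summit within 1000 bp, taken at the same distances as the members, had it in 0, which allows a share of up to 0.375% (3 windows). The 15 peaks had a median signal of 687, against 277 for all 446. The strongest were at 14-3-3zeta (2713), rogdi (2203) and CG4622 (2173). Those at Pfrx, CG31522 and MEP-1 had 1211, 1177 and 1004. The word was chosen because it was frequent at summits of these same data. Its higher share than in flanks or unoccupied starts is therefore no independent result. The signal difference comes from the same data and was not tested.

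A GAGAGAG repeat, the kind of sequence GAGA factor binds, was in 25 internal-promoter windows (5.61%, 3.83 to 8.14%), in 25 of 1760 at first starts (1.42%, 0.964 to 2.09%) and in 0.235% with starts on both strands. The flanks of the internal-promoter peaks had it just as often, in 50 of 892 (5.61%). Internal starts without a pooled summit had 2.50%, and all IDR peaks 1.64%. The E-box CAGCTG was in 4.93% of internal-promoter windows and 5.38% of their flanks, against 5.68% at first starts and 4.53% of all IDR peaks. GTATNTTT, the core of motif 6, was in 5.16%, 2.69% and 6.53% of these sets and in 5.73% of all IDR peaks.

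Base composition moved with the AT-rich motifs. TATAAA was in 19.3% (15.9 to 23.2%) of internal-promoter windows and 10.2% (8.38 to 12.4%) of their flanks, 18.6% at first starts, 14.2% at internal starts without a pooled summit and 21.5% of all IDR peaks. The summit windows had a GC content of 35.9% and their flanks 43.2%. At first starts these values were 36.7% and 41.4%, and internal starts without a pooled summit had 42.2%. The part of base composition in the TATAAA shares was not tested.

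**Figure D5:**
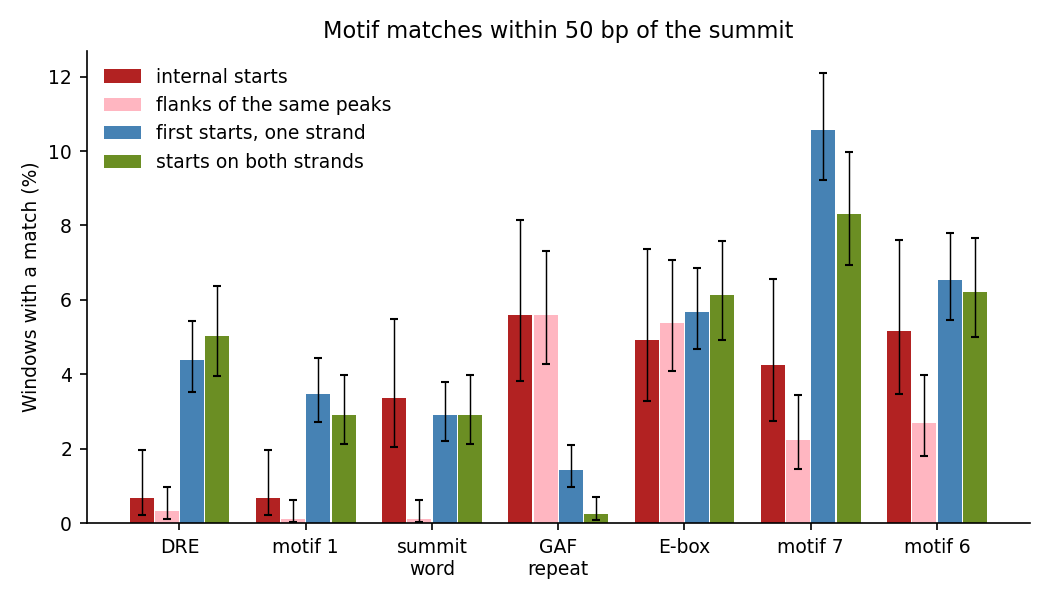
Share of windows with a match to each motif within 50 bp of the summit (y axis, %, from 0), with 95% Wilson intervals over windows, for peaks at internal starts (red), their flanks (pink), first starts on one strand (blue) and starts on both strands (green). The AT-rich TATA box, at 19.3% of internal-promoter windows, is left out for scale. Red is below blue for DRE, motif 1 and motif 7 and above it for the repeat bound by GAGA factor (GAF), where the flanks are as high.

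The median signal of internal-promoter peaks was 1.16 times that of first-promoter peaks (277 against 239, n = 446 and 1760), and 317 with starts on both strands. This order depended on the list. The ratio was 1.12 in the best 5654 peaks of replicate 4, 1.02 in those of replicate 3, 0.981 in the 2827 strongest IDR peaks and 0.863 over all pooled peaks. Of internal-promoter peaks 57.0% (52.3 to 61.5%) were among the 2827 strongest IDR peaks, against 45.3% (43.0 to 47.7%) of first-promoter peaks.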

How the data were processed

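ChIP-seq peaks of CG14711-eGFP were taken from 4 deposited lists in narrowPeak format on dm6: those of replicates 3 and 4 and of both pooled, each called with a control, and the optimal IDR list derived from them, per the deposited text records. The aligner, peak caller and IDR cutoff were not given in the sources used here. Signal is the authors' value per peak. The −log10 q deposited by the authors is the same (4.15) for all IDR peaks and was not used. The IDR list holds the 5654 pooled peaks of highest signal.

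Starts are the 5′ ends of all transcripts of protein-coding genes in the Ensembl annotation of BDGP6.54 (dm6 coordinates) on the large chromosome arms and chromosome 4. A replicate's value for a peak is that of its overlapping peak with the nearest summit, so neighbouring summits can share one. Shares carry Wilson 95% intervals over peaks or starts, which are not independent replicates, and they cover counting error only. Differences between classes of peaks or starts were described and not tested. Motif control windows at internal starts without a pooled summit took the members' distances in genome order. Gene symbols were matched by name or RefSeq synonym, and 2 did not match any gene.

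Named genes are those of the 25 peaks of highest signal, up to 4 per gene list and 5 for each outcome of the within-gene comparison. Others (genes with several peaks or the farthest one, replicate extremes, contrasting first starts, further list members, and examples with a motif) were named after their values were seen. The gene lists are partial, and genes named as outside a list were also chosen after their values were seen. The members, gene lists and motifs were chosen with earlier results of these data known. The rule was tested on simulated starts. Python 3.11.15, NumPy 2.4.6, SciPy 1.17.1 and Matplotlib 3.10.9 were used.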

Additional observations from a re-analysis of the deposited data

How the results depend on the processing

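Of 64 values recomputed under settings chosen at the start, 34 were counted as staying near the main value and 30 as moved. Shares that stayed lay within the Wilson interval of the main value. The number of peaks had a wider limit, under which 336 to 571 peaks counted as staying, beside 446 in the main setting. Leaving out the 54 peaks near any first start moved none of 12 values by these limits, with 392 peaks left. That setting was added after the values were seen. Counting only protein-coding transcripts left 446 peaks and 3001 internal starts, the same as in the main setting. Its values, counted among the 34, were therefore no separate check.

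With a 250 bp window there were 274 internal-promoter peaks, 11.2% of internal starts were occupied and 31.0% of member genes had the first start occupied. With 1000 bp the occupied shares were 27.2% and 53.3%, and 73.4% of summits were upstream. A minimum distance of 500 bp from the first start gave 20.05% of starts occupied and 78.5% of summits upstream. The 2827 strongest IDR peaks held 254 internal-promoter peaks. With them 10.8% of internal starts were occupied, 20.9% of member genes had the first start occupied, and the signal ratio was 0.981. All pooled peaks gave 1945 internal-promoter peaks, with 60.3% of internal starts occupied and the first start occupied in 80.7% of member genes. Of their summits 66.7% were upstream, and the ratio was 0.863.

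Using 1 replicate list alone gave 443 to 517 peaks, with 18.6 to 21.4% of internal starts occupied. The first start was occupied in 40.2 to 42.7% of member genes. Of summits 78.5 to 84.9% were upstream, and ratios were 1.02 to 1.12. The share of members in both replicates was 66.1% with summits within 100 bp, 58.5% with a member covered over 50% of its width or more and 98.7% in the full lists.

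With 100 bp to either side, shares were 1.79% for DRE, 2.24% for the motif 1 core, 3.81% for CAACCCTG and 31.4% for TATAAA. They were 12.8% for GAGAGAG, 11.7% for CAGCTG, 8.30% for motif 7 and 11.0% for motif 6. A wider window has more room for a match, and the part of width in these changes was not tested. For the 254 internal-promoter peaks among the 2827 strongest IDR peaks, TATAAA was in 25.6% of windows. The cause of the other changes was not tested. No paired analysis was possible because there is a single group. Depth is unknown, which limits what can be said of weak peaks.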
